A study of Mus musculus with 24 samples.

Results

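The livers of male abcb4 (-/-) mice of the strain FVB.129P2-Abcb4tm1Bor/J were compared with those of FVB/NJ abcb4 (+/+) mice at the time point titled 9 weeks. The comparison rested on 6 of the 24 arrays of the series, those whose titles give 9 weeks, and each array paired knockout RNA with wild-type RNA. The other 18 arrays came from 3, 6 and 20 weeks, with 6 arrays at each. According to the labels the weeks were counted from weaning, whereas the source names read 3 weeks on every array, so the time was taken from the titles. No other allele, agent or treatment is given for either genotype.

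Total RNA of whole liver was labelled with Cy5 and Cy3 and hybridised to spotted cDNA arrays. Knockout RNA was in Cy5 on replicates 1, 4 and 5 and in Cy3 on replicates 2, 3 and 6. The series states 5 mice per genotype and time point and 1 dye swap, so at least 1 of the 6 arrays repeated mice of another one. Which array that was is not given, and nothing says which of the series' 24 arrays come from separate mice. The p-values rest on a spread pooled over all 24 arrays, not on the 6 of 9 weeks alone. Every value below is a log ratio turned to knockout over wild type and centred on the array's median, taken as log2 because most log ratios of arrays are. A value of 1 is then a doubling in the knockout and -1 a halving. The turned direction is likely rather than settled: it takes the deposited ratios as Cy5 over Cy3, and under that reading the deleted gene was below 0 on 24 of 24 arrays. With the opposite reading every direction below would turn. Adjusted p-values are those of limma over 20861 items (16504 named genes and 4357 features with no single gene), with a threshold of 0.05.

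ABCB4, also known as MDR2 in mice, moves phosphatidylcholine from hepatocytes into bile, where it shields the duct lining from the detergent action of bile salts. Mice without it secrete bile that lacks phospholipid. Their livers are known for injury around the bile ducts, scarring that spreads from the portal tracts, and tumours in later life.

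Abcb4 was read at -2.22 on its lowest array, -1.37 in the median and -0.64 on its highest. Its mean was -1.42 ± 0.66 (SD, n = 6; adjusted p = 3.1e-06), and it was below 0 on 6 of 6 arrays. The lowest and the highest array both carried wild-type RNA in Cy5, so the spread was not one between dye orientations. Because the direction of all ratios leans on this gene, its fall is a check of the labels and not a separate finding. The part of Abcb4 that the feature covers is not given in the sources used here.

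Among the 6 arrays, the turned ratios of pairs with the same dye orientation correlated with r between 0.32 and 0.756 across items. Pairs with opposite orientation gave r between 0.40 and 0.746. Replicate 2 stood apart, with an interquartile range of 0.386 against 0.214 to 0.314 on the others and a limma array weight of 0.306 against 0.673 to 1.74. Several results that lean on it are given with and without it, but not every list count that moved. An effect of the dye passed the threshold for 2409 items (11.5%), and the fit held a term for it.

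In all, 4444 items passed the threshold (21.3%), of which 2169 were higher in the knockout (10.4%) and 2275 lower (10.9%). The median over all items was -0.0014, and the median size of a called difference was 0.30. Of the called items, 3062 had 1 sign on all 6 arrays, beside 18.2% of all items tested. Differences over 1 were mostly rises: 168 items were called higher by more than 1 and 78 lower by more than 1. Beyond 2 there were 16 rises and 9 falls. Leaving out each array in turn left between 3293 (without replicate 5) and 4348 calls (without replicate 1), and 2652 of the 4444 calls were kept in all 6 of these fits. The 6 arrays fitted on their own gave 2286 calls, of which 2180 were also among the 4444. In whole liver, fewer cells of a type and less RNA per cell cannot be told apart. Log ratios hold no level, so the liver label could not be checked against the amount of any marker.

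Among the 12 largest rises, the highest was Anxa5, which encodes a calcium-dependent phospholipid-binding protein. It was read between 2.51 and 4.36, with a median of 3.57 (mean 3.55 ± 0.63, adjusted p = 1.61e-11). Lcn2, an iron-siderophore-binding protein released in inflammation, ranged from 2.05 to 4.34 with a median of 3.37 (mean 3.38 ± 0.83, adjusted p = 9.91e-06). Ifi27l2b, of an interferon-inducible family, ranged from 2.60 to 3.77 with a median of 3.25 (mean 3.24 ± 0.49, adjusted p = 7.94e-11). Each of these was at least 2 on every array, whichever genotype was in Cy5.

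Ly6e, a membrane-anchored protein induced by interferon, was read between 2.40 and 3.48 with a median of 2.84 (mean 2.85 ± 0.41, adjusted p = 1.93e-12). Its dye term also passed the threshold, at 0.68 (adjusted p = 0.00188). Lyz2, the lysozyme of macrophages and neutrophils, ranged from 1.52 to 3.06 with a median of 2.61 (mean 2.45 ± 0.54, adjusted p = 7.94e-11). S100a11, a calcium-binding partner of annexins, ranged from 1.84 to 3.44 (median 2.27, mean 2.42 ± 0.58). Anxa2, another annexin, ranged from 1.37 to 3.09 (median 2.34, mean 2.39 ± 0.65). Klra8, a receptor of natural killer cells, ranged from 0.91 to 3.00 (median 2.78, mean 2.39 ± 0.82), with its single low array at replicate 6.

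Matrix genes made up a further 3 of the 12. Mgp, matrix Gla protein, was read between 1.91 and 3.06 (median 2.12, mean 2.29 ± 0.45). Col3a1, a fibrillar collagen of scar and vessel walls, ranged from 1.54 to 3.09 (median 2.27, mean 2.29 ± 0.52). Col2a1, the collagen known from cartilage, ranged from 1.55 to 2.55 (median 2.17, mean 2.10 ± 0.35). The last of the 12 was Rtn4, a reticulon of the endoplasmic reticulum, between 0.99 and 3.33 (median 2.30, mean 2.24 ± 0.84). Adjusted p-values of these 7 genes from S100a11 to Rtn4 lay between 5.87e-09 and 1.86e-07. The ranking took only calls with the same sign on every array, so that no array of them was at or below 0 follows from the selection.

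**Figure D1:**
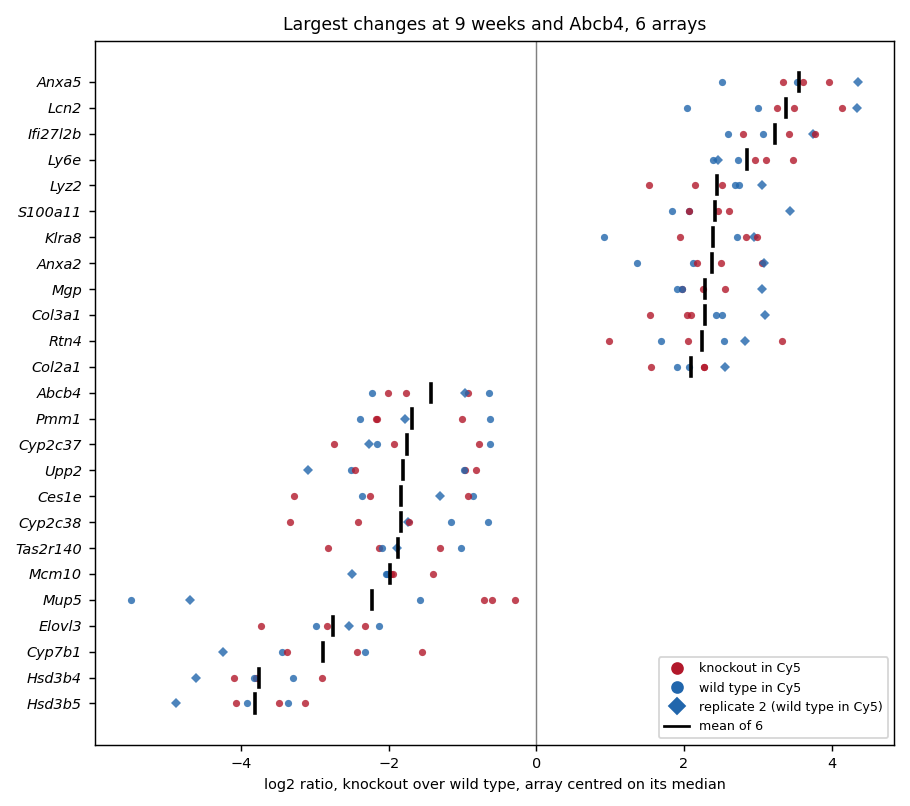
Log2 ratio (horizontal axis, knockout over wild type) of Abcb4 and of the 12 largest rises and 12 largest falls at 9 weeks, with 1 point per array coloured by the genotype in Cy5 and a bar at the mean of 6. Anxa5 has the highest mean (3.55) and Hsd3b5 the lowest (-3.81), and the points of Mup5 split by dye orientation.

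Of the 12 largest falls, 4 belonged to lipid and steroid metabolism and had the 4 lowest means of the 12. Both rankings, of rises and of falls, left out clone names, predicted genes and features with no single gene. Hsd3b5, a male-predominant 3-keto steroid reductase of the mouse liver, was read between -4.88 and -3.13 with a median of -3.70 (mean -3.81 ± 0.63, adjusted p = 2.77e-09). Hsd3b4, its close relative, ranged from -4.61 to -2.90 with a median of -3.82 (mean -3.76 ± 0.60, adjusted p = 9.76e-09). The pair are near-identical copies, and a spotted cDNA may have bound the RNA of both, so they are uncertain as separate results. Cyp7b1, the oxysterol 7-alpha-hydroxylase, ranged from -4.25 to -1.55 with a median of -2.91 (mean -2.90 ± 0.97, adjusted p = 1.02e-06). Elovl3, an elongase of very long chain fatty acids, ranged from -3.74 to -2.14 with a median of -2.69 (mean -2.76 ± 0.57, adjusted p = 2.77e-09). None of the 4 had an array above -1.

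Mup5, of the major urinary protein family, ranged from -5.49 to -0.29 with a median of -1.15 (mean -2.23 ± 2.27, adjusted p = 0.00969). Its 3 arrays with knockout in Cy5 lay near 0 and the others lay lower, and its dye term was 3.07 (adjusted p = 0.00322). Its call ended without replicate 3 (adjusted p = 0.0524), with a common spread (adjusted p = 0.0591) and with no dye term (adjusted p = 0.0785). Mup genes are near-identical copies, so the feature may report several of them.

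Further enzymes followed. Cyp2c38 ranged from -3.34 to -0.65 (median -1.73, mean -1.84 ± 0.95) and Cyp2c37 from -2.74 to -0.63 (median -2.05, mean -1.75 ± 0.86); both belong to the same cluster of closely similar P450 genes. Ces1e, a carboxylesterase, ranged from -3.29 to -0.86 (median -1.78, mean -1.83 ± 0.96). Upp2, a liver uridine phosphorylase, ranged from -3.09 to -0.81 (median -1.72, mean -1.81 ± 0.99). Pmm1, a phosphomannomutase, ranged from -2.39 to -0.63 (median -1.97, mean -1.69 ± 0.71). Adjusted p-values of these 5 lay between 2.04e-05 and 0.000111.

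A further pair of names among the falls are not usual liver transcripts or go against their family. Mcm10, a DNA replication factor, was read between -2.50 and -1.41 (mean -1.98 ± 0.35, adjusted p = 3.51e-08), while no Mcm2 to Mcm7 helicase gene was called lower. Tas2r140, a bitter taste receptor, ranged from -2.82 to -1.03 (median -1.99, mean -1.88 ± 0.64, adjusted p = 3.14e-08). The sequences of the spots are not used here, so whether these features report the named genes was not tested.

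Genes of the interstitial matrix, the collagens and small proteoglycans that make up scar, were higher in 17 of 22 measured members and lower in 0, with a median of 0.53. Counts of this and each later list are to be read beside 10.4% of all items called higher and 10.9% called lower. Col1a1, a chain of type I collagen, was read between 1.32 and 1.74 (median 1.52, mean 1.53 ± 0.16, adjusted p = 1.25e-07). Col1a2, the other chain, ranged from 1.33 to 2.18 (median 1.65, mean 1.69 ± 0.34, adjusted p = 9.5e-08). Lum, lumican, which spaces collagen fibrils, ranged from 1.08 to 2.56 (median 2.06, mean 1.86 ± 0.61, adjusted p = 2.22e-07). Over single arrays the median of the 22 members lay between 0.19 (replicate 1) and 0.82 (replicate 2), and the count was 17 also without replicate 2.

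Basement membrane genes were higher in 12 of 14 and lower in 0, with a median of 0.36, and 10 were higher without replicate 2. Nid1, nidogen, which links laminin and collagen IV, ranged from 0.91 to 3.19 (median 2.19, mean 2.09 ± 0.74, adjusted p = 1.13e-06). Col4a1 ranged from 1.21 to 2.17 (mean 1.52 ± 0.37) and Col4a2 from 0.62 to 1.19 (mean 0.95 ± 0.21), the paired chains of collagen IV. Of the laminin chains, Lamb1 had a mean of 0.74 ± 0.47 (0.26 to 1.59, adjusted p = 7.44e-05) and Lama5 of 0.78 ± 0.52 (0.21 to 1.69, adjusted p = 0.0002). The median of these 14 genes was 0.87 on replicate 2 and at or above 0.23 on each of the others.

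Enzymes and inhibitors that remodel matrix were higher in 11 of 22 and lower in 0, with a median of 0.24. Without replicate 2, 9 were higher. The largest rise among those named was Loxl2, which cross-links collagen, from 0.98 to 1.63 (median 1.16, mean 1.27 ± 0.27, adjusted p = 3.51e-06). Serpinh1, the collagen chaperone HSP47, ranged from 0.64 to 1.70 (mean 1.12 ± 0.42, adjusted p = 7.2e-06). Plat, tissue plasminogen activator, had a mean of 0.62 ± 0.23 (adjusted p = 3.77e-06). Mmp2, a gelatinase, had a mean of 0.58 ± 0.31 (0.09 to 0.98), and Timp1, an inhibitor of matrix metalloproteinases, of 0.61 ± 0.35 (0.21 to 1.24).

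Markers of stellate cells and myofibroblasts, the cells that lay down scar, were higher in 13 of 21 and lower in 1, with a median of 0.58. Acta2, smooth muscle actin of contractile myofibroblasts, was read between 0.52 and 2.07 (median 1.29, mean 1.27 ± 0.62, adjusted p = 0.000815). Vim, vimentin, ranged from 1.06 to 2.20 (median 1.38, mean 1.45 ± 0.41). Tgfbi, a secreted protein induced by TGF beta, ranged from 0.88 to 1.87 (median 1.11, mean 1.24 ± 0.37). Des, desmin, which marks quiescent stellate cells as well, rose by 0.23 ± 0.13 (adjusted p = 0.00498). Pdgfra, a receptor for platelet-derived growth factor, had a mean of 0.71 ± 0.31, with replicate 2 at 1.31 and the rest from 0.46 upward. How much of the rise in matrix genes moves with the number of such cells was not tested.

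The TGF beta, BMP and SMAD family was higher in 9 of 24 and lower in 1, with a median of 0.11. Tgfbr2, the type II receptor, had the largest mean among those named, at 1.03 ± 0.50 (0.47 to 1.82, adjusted p = 2e-05). The ligands rose less: Tgfb1 was at 0.39 ± 0.17 (adjusted p = 0.00014) and Tgfb2 at 0.36 ± 0.33 (adjusted p = 0.00212). The binding proteins that store these ligands in matrix were called too, Ltbp3 at 0.60 ± 0.39 and Ltbp1 at 0.26 ± 0.16.

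Markers of cholangiocytes, the cells that line bile ducts, were higher in 10 of 20 and lower in 0, with a median of 0.21. Krt23, a stress-induced keratin, ranged from 1.07 to 2.64 (median 1.79, mean 1.74 ± 0.55, adjusted p = 1.57e-06). Cdh1, E-cadherin, ranged from 1.03 to 2.25 (median 1.30, mean 1.43 ± 0.46), and Epcam, an adhesion protein of duct cells, from 0.90 to 1.61 (median 1.22, mean 1.23 ± 0.28). Krt19, the keratin by which ducts are stained, ranged from 0.59 to 1.28 (median 0.87, mean 0.86 ± 0.25, adjusted p = 1.41e-06). Sox9, a transcription factor of ducts and progenitor cells, lay between -0.34 and 0.66 (mean 0.13 ± 0.38, adjusted p = 0.537).

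Annexins and S100 proteins, calcium-binding proteins of membranes and the cell cortex, were higher in 9 of 17 and lower in 1, with a median of 0.57. Besides Anxa5, S100a11 and Anxa2, the rises included Anxa3 at 1.01 ± 0.50 (0.57 to 1.92) and Anxa6 at 0.64 ± 0.15 (0.43 to 0.88). Cytoskeleton genes were higher in 16 of 21 and lower in 0, with a median of 0.66, and 16 were called in each of the 6 fits that left out an array. Tmsb4x, thymosin beta 4, which binds actin monomers, ranged from 1.14 to 2.54 (median 1.56, mean 1.64 ± 0.54, adjusted p = 5.41e-07). Coro1a, coronin of leukocytes, was at 0.71 ± 0.11, and Tubb5, a beta tubulin, at 0.60 ± 0.29. Flna, filamin, was at 0.52 ± 0.18, but its pair of features differed, with means of -0.01 and 1.05. Actb, beta actin, often used as a reference gene, ranged from -0.51 to 0.81 (mean 0.38 ± 0.49, adjusted p = 0.136).

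**Figure D2:**
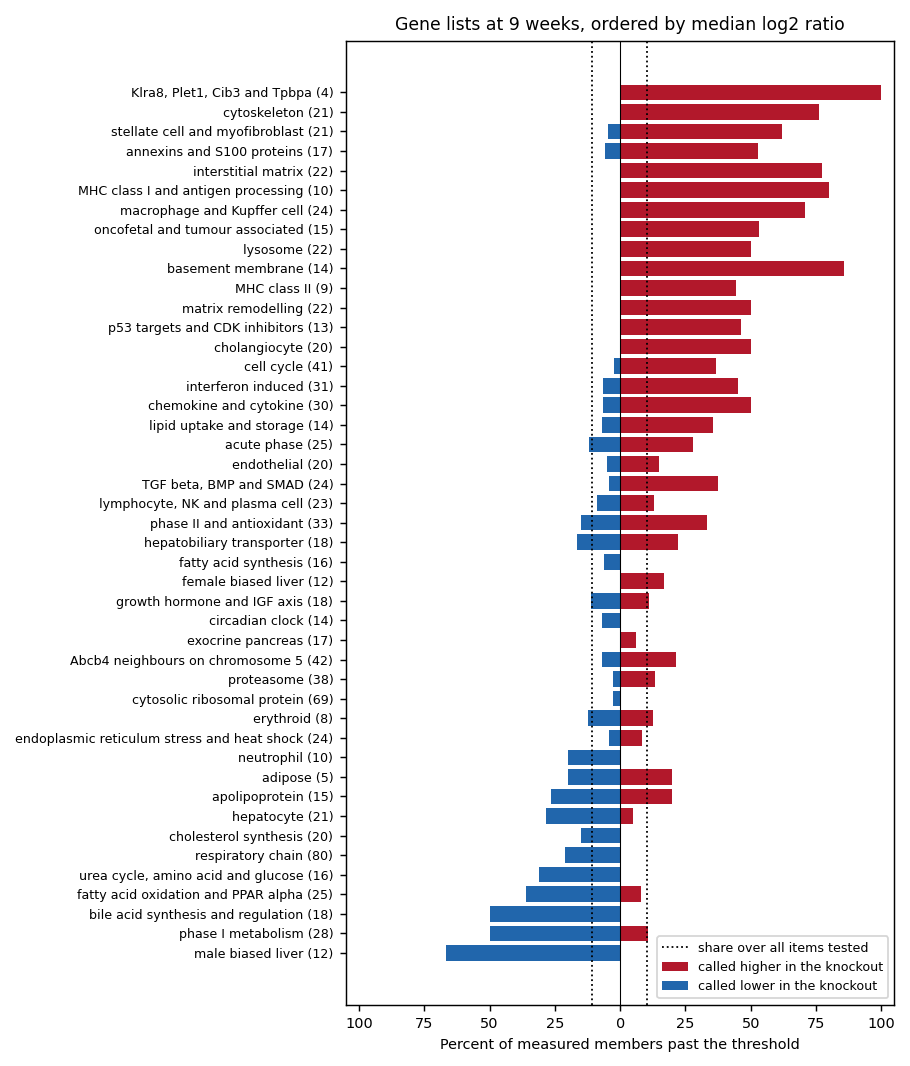
Percent of the measured members of each gene list (number measured in brackets) called higher (red, right) or lower (blue, left) in the knockout at 9 weeks, ordered by median log2 ratio, with dotted lines at the share over all items tested (10.4% and 10.9%). Matrix, cytoskeleton and macrophage lists extend far to the right of the line, and male biased and phase I lists to the left.

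Markers of macrophages and Kupffer cells were higher in 17 of 24 and lower in 0, with a median of 0.51. Mpeg1, perforin-2 of phagocytes, was read between 1.15 and 1.72 (median 1.30, mean 1.35 ± 0.21, adjusted p = 2.99e-08). C1qb, a chain of the complement component that macrophages make, ranged from 0.57 to 1.47 (median 1.01, mean 1.00 ± 0.30). Adgre1, the F4/80 antigen of mature macrophages, had a mean of 0.59 ± 0.37 (0.02 to 1.13, adjusted p = 0.000972). Clec4f, a lectin particular to Kupffer cells in the mouse, was at 0.38 ± 0.35 (-0.13 to 0.73, adjusted p = 0.12) and did not pass. Together with Lyz2 these values show rises in general phagocyte genes, without a call for Clec4f.

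Neutrophil markers were higher in 0 of 10 and lower in 2, with a median of -0.09. S100a9, a subunit of calprotectin, was lower at -0.80 ± 0.62, with replicate 5 at -2.03 and the highest array at -0.37. S100a8, the partner subunit, was at 0.26 ± 0.27 (adjusted p = 0.139). Cxcr2, the chemokine receptor of neutrophils, was at -0.42 ± 0.26 (adjusted p = 0.0219), a call that ended without replicate 2, 3 or 5 (adjusted p = 0.0563, 0.114 and 0.0722) and with the closest opposite-dye arrays averaged (adjusted p = 0.0841). The call of S100a9 ended when the 9-week arrays were fitted on their own (adjusted p = 0.0545). Lcn2, which neutrophils store, thus rose without a call for S100a8.

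Lymphocyte, natural killer and plasma cell markers were higher in 3 of 23 and lower in 2, close to the shares over all items. Apart from Klra8, Klrd1, the CD94 chain of natural killer receptors, rose to 0.76 ± 0.41 (0.17 to 1.26, adjusted p = 0.000174). Cd5, an inhibitory receptor of T cells, fell to -0.66 ± 0.28, with replicate 5 at -1.20 and the highest array at -0.38. Cd3e, the T cell receptor chain, and Cd79a, the B cell receptor chain, were at -0.06 ± 0.25 and 0.18 ± 0.25 (adjusted p = 0.713 and 0.407).

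Genes of MHC class II, which presents antigen to helper T cells, were higher in 4 of 9 and lower in 0, with a median of 0.28. Cd74, the invariant chain, ranged from 1.04 to 2.78 (median 1.91, mean 1.90 ± 0.56, adjusted p = 1.92e-06). H2-Aa ranged from 0.65 to 2.99 (median 1.93, mean 1.77 ± 0.88) and H2-Ab1 from 0.78 to 1.71 (median 1.17, mean 1.22 ± 0.39), the chains of the I-A molecule. H2-DMb1, which loads peptides, was at 0.74 ± 0.38, with replicate 2 at 1.49. MHC class I and antigen processing genes were higher in 8 of 10 and lower in 0, with a median of 0.51. Among them H2-D1 was at 0.95 ± 0.31, Psmb8, an immunoproteasome subunit, at 0.89 ± 0.24, H2-K1 at 0.73 ± 0.45 and Tapbp, tapasin, at 0.62 ± 0.26. B2m, the light chain shared by class I molecules, was at 0.12 ± 0.47 (adjusted p = 0.622), and its dye term was 0.62 (adjusted p = 0.00865). Class I and class II genes resemble one another within each family, so single members are uncertain.

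Interferon-induced genes were higher in 14 of 31 and lower in 2, with a median of 0.19. After Ifi27l2b and Ly6e, the rises were smaller. Bst2, tetherin, which holds budding virions at the cell surface, was read between 0.69 and 1.22 (median 0.87, mean 0.92 ± 0.20, adjusted p = 1.33e-06). Irf7, a transcription factor of the interferon response, was at 0.52 ± 0.39 (adjusted p = 0.00155). Irf1, another, was at 0.39 ± 0.29 (adjusted p = 0.0243), a call that ended without replicate 1, 2 or 4 (adjusted p = 0.0771, 0.0877 and 0.0556). Without replicate 2 the list counted 10 rises.

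Chemokines, cytokines and their receptors were higher in 15 of 30 and lower in 2, with a median of 0.19, and 10 were higher without replicate 2. Ccl2, which draws monocytes, was read between 0.81 and 2.51 (median 1.19, mean 1.35 ± 0.63, adjusted p = 3.55e-06). Ccr2, its receptor on monocytes, had a mean of 0.81 ± 0.40, with replicate 2 at 1.57 and the lowest array at 0.50. Cxcl16 was at 0.74 ± 0.28 and Ccl6 at 0.76 ± 0.24. Cxcl10, an interferon-induced ligand for T cells, ranged from 0.35 to 0.98 (mean 0.73 ± 0.25, adjusted p = 0.0305). Its call ended whichever array was left out (adjusted p between 0.0509 and 0.0847), although all 6 arrays were above 0.

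Endothelial markers were higher in 3 of 20 (15%) and lower in 1 (5%), beside 10.4% and 10.9% of all items. Cd34, found on vessel endothelium, rose to 0.73 ± 0.32 (0.38 to 1.19, adjusted p = 5.6e-06), and Eng, endoglin, to 0.34 ± 0.17. Esam, an adhesion molecule of endothelial junctions, fell to -0.42 ± 0.18 (adjusted p = 0.000597). Pecam1 and Stab2, a marker of sinusoids, were at 0.17 ± 0.21 and 0.14 ± 0.09 (adjusted p = 0.185 and 0.468).

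Lysosome genes were higher in 11 of 22 and lower in 0, with a median of 0.43. Ctss, a cathepsin of antigen-presenting cells, had a mean of 1.51 ± 0.45, with replicate 2 at 2.40 and the lowest array at 1.11. Npc2, which carries cholesterol in the lysosome, was at 0.70 ± 0.21, Ctsb at 0.63 ± 0.35 and Glb1, beta-galactosidase, at 0.49 ± 0.24. Lamp1, a main protein of the lysosomal membrane, was at 0.04 ± 0.37 (adjusted p = 0.853). The lysosomal rise thus included cathepsins and lipid carriers but had no call for Lamp1.

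Cell cycle genes were higher in 15 of 41 and lower in 1, with a median of 0.20. Ccnd1, cyclin D1, which drives entry into the cycle, was read between 1.14 and 2.22 (median 1.58, mean 1.63 ± 0.40, adjusted p = 6.72e-06). Stmn1, a microtubule regulator, ranged from 0.49 to 1.76 (median 1.34, mean 1.25 ± 0.51). Ube2c, of the mitotic ubiquitin machinery, was at 0.75 ± 0.36 and Mki67, the Ki-67 antigen of cycling cells, at 0.43 ± 0.29 (adjusted p = 0.000772). Cdk1 was at 0.33 ± 0.34 (adjusted p = 0.0161), a call that ended without replicate 2, 4 or 5 (adjusted p = 0.0955, 0.0709 and 0.0564). The count of 15 rises fell to 9 without replicate 2 and to 9 without replicate 4.

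Targets of p53 and inhibitors of cyclin-dependent kinases were higher in 6 of 13 and lower in 0, a count of 3 without replicate 3. Plk2 was at 0.71 ± 0.26, Btg2, an antiproliferative gene, at 0.95 ± 0.58 and Ccng1, cyclin G1, at 0.31 ± 0.13. Cdkn1a, the p21 inhibitor, was at 0.66 ± 0.37 (adjusted p = 0.0305), with replicate 2 at 1.36 and a call that ended without replicate 1, 2, 3 or 5 (adjusted p = 0.0528, 0.125, 0.0577 and 0.0742). Mdm2, a p53 target and its inhibitor, was at -0.02 ± 0.24 (adjusted p = 0.905).

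Oncofetal and tumour-associated genes were higher in 8 of 15 and lower in 0, with a median of 0.46. Tff3, a mucosal repair peptide, ranged from 0.75 to 2.93 (median 2.44, mean 2.09 ± 0.88, adjusted p = 1.5e-07). Ly6d ranged from 1.19 to 2.42 (median 1.85, mean 1.85 ± 0.51, adjusted p = 4.1e-07), and Clu, clusterin, a secreted chaperone, from 1.10 to 2.86 (median 1.64, mean 1.72 ± 0.63, adjusted p = 4.36e-07). Afp, alpha-fetoprotein, was at -0.13 ± 0.17 and H19, a fetal non-coding RNA, at -0.33 ± 0.26 (adjusted p = 0.253 and 0.7). The 2 fetal liver transcripts were thus not called at 9 weeks, while the 3 epithelial genes were high on every array.

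Hepatocyte markers were higher in 1 of 21 and lower in 6, with a median of -0.17. Cyp2e1, an ethanol-oxidising P450 of cells around the central vein, was read between -1.93 and -0.88 (median -1.58, mean -1.49 ± 0.45, adjusted p = 1.82e-07). Apoa2, an apolipoprotein of HDL, was at -0.50 ± 0.21 (adjusted p = 0.00431). Ttr, transthyretin, was at -0.73 ± 0.31 (adjusted p = 0.0184), a call that ended without replicate 1, 4 or 5 (adjusted p = 0.0629, 0.0592 and 0.065). Without replicate 5 the count of falls was 3, and without replicate 2 it was 4. Trf, transferrin, rose to 1.20 ± 0.37 (0.75 to 1.54). Alb, albumin, ranged from -0.89 to 0.71 (mean 0.07 ± 0.59, adjusted p = 0.876) and had a dye term of 1.62 (adjusted p = 5.1e-05). Hepatocyte markers thus did not move as one, and the part of the rises in markers of other cells in these values was not tested.

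Bile acid synthesis and its regulation were lower in 9 of 18 and higher in 0, with a median of -0.34, and 4 were lower without replicate 4. Cyp27a1, the mitochondrial sterol 27-hydroxylase that opens the acidic route, was read between -1.12 and -0.63 (median -0.92, mean -0.88 ± 0.19, adjusted p = 1.13e-07). Cyp7b1, the next enzyme on that route, is among the largest falls given above. Slc27a5, which activates bile acids for conjugation, ranged from -1.04 to -0.47 (mean -0.72 ± 0.20, adjusted p = 4.45e-05). The other 6 called members were Hsd3b7, Cyp39a1, Nr0b2, Hsd17b4, Amacr and Klb, with means from -0.65 to -0.24. Cyp7a1, the rate-limiting enzyme of the classic route, ranged from -1.63 to 1.09 (median 0.42, mean 0.12 ± 0.97, adjusted p = 0.796). Cyp8b1, which sets cholic acid, ranged from -2.77 to 0.95 (mean -0.33 ± 1.32, adjusted p = 0.64). For both enzymes of the classic route the arrays spread over both signs, so a change could not be told from that spread.

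Hepatobiliary transporters were higher in 4 of 18 and lower in 3, with a median of 0.06, and 6 were higher without replicate 2. Abcc3, which exports conjugates back to blood, ranged from 0.38 to 2.19 (mean 1.44 ± 0.72, adjusted p = 0.0001). Abcb1b, a multidrug exporter next to Abcb4 in the genome and similar to it, was at 0.45 ± 0.23 (adjusted p = 0.000229). Slco2b1, an organic anion carrier, was at -0.47 ± 0.41. Slc10a1, the main uptake carrier for bile salts, was at -0.30 ± 0.28 (adjusted p = 0.00777), a call that ended without replicate 4 (adjusted p = 0.0556). Abcb11, the bile salt export pump, was at -0.15 ± 0.55 (adjusted p = 0.501).

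Urea cycle, amino acid and glucose genes were lower in 5 of 16 and higher in 0, with a median of -0.30, and leaving out replicate 1, 2, 3 or 5 gave 3, 2, 3 and 3 falls. Glul, glutamine synthetase of the cells next to the central vein, was at -0.74 ± 0.47 (-1.50 to -0.36, adjusted p = 0.000931). Hal, a histidine-degrading enzyme, was at -0.71 ± 0.44 and Tdo2, a tryptophan-degrading one, at -0.77 ± 0.70. The call of Hal ended without replicate 2 (adjusted p = 0.0665) and that of Tdo2 without replicate 2 or 3 (adjusted p = 0.0715 and 0.0752). Otc, of the urea cycle, was at -0.30 ± 0.39 with replicate 6 at 0.46 and 5 arrays below 0. Its call (adjusted p = 0.0303) ended without any 1 of replicates 1 to 5 (adjusted p up to 0.12) and was firmer without replicate 6 (adjusted p = 0.000109). Pck1, of gluconeogenesis, was at -0.46 ± 0.92 (adjusted p = 0.455).

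Cholesterol synthesis was lower in 3 of 20 and higher in 0, with a median of -0.18. Stard4, a sterol carrier, was at -0.45 ± 0.44 (adjusted p = 0.00629). Ebp and Tm7sf2, enzymes of the late pathway, were at -0.49 ± 0.22 and -0.71 ± 0.22 (adjusted p = 0.00949 and 0.0257). The call of Ebp ended without replicate 5 (adjusted p = 0.0526), and that of Tm7sf2 without replicate 1, 3, 4 or 5 (adjusted p = 0.0691, 0.0556, 0.077 and 0.0933), so 1 fall was left without replicate 5. Hmgcs1 and Sqle, early enzymes, were at 0.14 ± 0.79 and -0.31 ± 0.34 (adjusted p = 0.868 and 0.512). Fatty acid synthesis had 1 fall of 16 and no rise. That was Mlxipl, the factor ChREBP, at -0.29 ± 0.21 (adjusted p = 0.0306), a call that ended without replicate 1, 2 or 4 (adjusted p = 0.0617, 0.0695 and 0.162). Fasn and Scd1 were at 0.33 ± 0.74 and 0.45 ± 0.47 (adjusted p = 0.587 and 0.155).

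Fatty acid oxidation and targets of PPAR alpha were lower in 9 of 25 and higher in 2, with a median of -0.31. Acot1, an acyl-CoA thioesterase, ranged from -1.47 to -0.24 (median -1.12, mean -0.99 ± 0.42, adjusted p = 9.45e-06). Cpt2, which imports fatty acids into mitochondria, was at -0.54 ± 0.27 (adjusted p = 4.21e-05). Pdk4, which spares glucose by blocking pyruvate oxidation, went the other way, from 0.44 to 2.67 (median 1.44, mean 1.40 ± 0.81, adjusted p = 0.000175). Cyp4a10 and Cyp4a14, the classic targets, were at -0.62 ± 0.26 and -0.31 ± 0.40 (adjusted p = 0.0769 and 0.693).

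Lipid uptake and storage genes were higher in 5 of 14 and lower in 1. Cd36, a fatty acid translocase, ranged from 0.45 to 2.46 (median 1.21, mean 1.34 ± 0.67, adjusted p = 1.82e-06). Lpl, lipoprotein lipase, was at 1.09 ± 0.53, with replicate 2 at 2.13 and the lowest array at 0.72. Cidec, of lipid droplets, was at 0.49 ± 0.51 and Fabp5, a fatty acid carrier, at -0.48 ± 0.17. Pparg, a regulator of fat storage, was at 0.25 ± 0.28 (adjusted p = 0.0568) and passed without replicate 2 (adjusted p = 0.0127). Apolipoproteins were higher in 3 of 15 and lower in 4, or lower in 2 without replicate 5. Apoc2, the activator of Lpl, was at 0.79 ± 0.41 (adjusted p = 0.00226) and Pltp, a phospholipid transfer protein, at 0.43 ± 0.28 (adjusted p = 0.00132). Apoe was at 0.33 ± 0.25 (adjusted p = 0.0299), a call that ended without replicate 2, 3 or 6 (adjusted p = 0.145, 0.067 and 0.0776). Apoa1 was at -0.16 ± 0.30 (adjusted p = 0.588), with replicate 6 at 0.43.

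Phase I enzymes, which oxidise or hydrolyse drugs and steroids, were lower in 14 of 28 and higher in 3, with a median of -0.43. Without replicate 2, 11 were lower. The falls were led by Cyp2e1, Cyp2c38, Ces1e and Cyp2c37, given above. Cyp3a11, the main mouse CYP3A and a target of the receptor PXR, went the other way, from 1.16 to 2.81 (median 1.43, mean 1.77 ± 0.71, adjusted p = 3e-05). Phase II and antioxidant genes were higher in 11 of 33 and lower in 5, with a median of 0.08. Of the glutathione transferases of the mu class, Gstm1 rose, from 0.88 to 1.98 (mean 1.28 ± 0.37, adjusted p = 0.000111), and so did Gstm3, from 0.98 to 1.75 (mean 1.31 ± 0.31, adjusted p = 4.62e-05). The list's other mu-class members, looked up after these values were seen, were Gstm2, Gstm5 and Gstm6, which rose with means of 0.91, 1.05 and 1.31, and Gstm4, at 0.08 ± 0.18 (adjusted p = 0.589). Gstm genes are close copies and may share signal. Mgst3, a microsomal transferase, was at 0.74 ± 0.30. Gstt3, of the theta class, fell to -1.27 ± 0.31 (-1.61 to -0.78, adjusted p = 8.98e-05). Nqo1, a target of the oxidant sensor NRF2, was at 0.49 ± 0.35 (adjusted p = 0.00801), a call that ended without replicate 2 (adjusted p = 0.0521). Of the 5 falls, 2 or 3 were left without any 1 of replicates 1, 3, 4, 5 and 6.

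Acute phase genes, which the liver makes in inflammation, were higher in 7 of 25 and lower in 3, with a median of 0.15. Hpx, hemopexin, which binds heme, was read between 1.12 and 2.44 (median 1.49, mean 1.60 ± 0.49, adjusted p = 4.62e-05). Cp, ceruloplasmin, which carries copper, was at 0.91 ± 0.55 (adjusted p = 0.000108). Saa1, serum amyloid A, was at 0.69 ± 0.60 (adjusted p = 0.431) and Orm1, orosomucoid, at -0.15 ± 0.64 (adjusted p = 0.821). Saa2 and Saa3 were at 0.73 and 0.69 and Orm2 at -0.11, none of them called. The strong rise of Lcn2 thus stood beside smaller positive means of these Saa genes that were not called. Orm1 and Orm2 were not called either. Without replicate 2 the list had 4 rises, and without replicate 3, 4 or 5 it had 1 fall.

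The core of C/EBP binding sites, known from acute phase genes, was searched as TTGCNNAA on both strands in the 250 bases before each gene's start. These came from RefSeq windows of GRCm38.p6, found for 13223 of the 16504 genes. The core was in 9.85% of the genes with a window and in 10 of 20 of the acute phase list. Of the listed genes called higher, 4 of 6 held it, and of those not called higher, 6 of 14. The windows of Lcn2 and Hpx are printed because these are the largest rises of the list described here. They lie at chr2:32387740-32387989 (Lcn2) and chr7:105600117-105600366 (Hpx), both on the minus strand, and are given 5′ to 3′ in the direction of the gene with the match in capitals.
Lcn2: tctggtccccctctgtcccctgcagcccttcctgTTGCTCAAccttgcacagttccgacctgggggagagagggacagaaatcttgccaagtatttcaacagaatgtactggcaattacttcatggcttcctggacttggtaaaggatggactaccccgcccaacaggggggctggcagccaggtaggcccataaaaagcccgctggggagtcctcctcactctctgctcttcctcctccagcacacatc
Hpx: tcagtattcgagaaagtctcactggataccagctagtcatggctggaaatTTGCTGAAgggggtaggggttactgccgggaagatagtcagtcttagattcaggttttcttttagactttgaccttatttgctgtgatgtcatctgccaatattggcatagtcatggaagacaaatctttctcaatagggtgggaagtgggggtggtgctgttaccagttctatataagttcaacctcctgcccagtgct
The match ended 209 bases before the start of Lcn2 and 193 bases before that of Hpx. Over all genes called higher the share was 10.3% and over those called lower 10.2%, so it did not separate the calls. A match describes these letters and does not show that a factor bound there.

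Genes known to be higher in male than in female mouse liver were lower in 8 of 12 and higher in 0, with a median of -0.73, the lowest of the 45 lists. Besides Hsd3b5, Cyp7b1 and Elovl3, Susd4 was read between -2.30 and -0.33 (median -0.80, mean -0.99 ± 0.73, adjusted p = 0.000445). Cyp4a12a, a male-predominant fatty acid hydroxylase, was at -0.36 ± 0.41 (adjusted p = 0.367). The median of the 12 genes was below 0 on each array, between -1.18 and -0.24. Genes known to be higher in females were higher in 2 of 12 and lower in 0. Cyp3a41a was at 1.55 ± 0.82, with replicate 2 at 3.10 and the lowest array at 0.91, and it may share signal with Cyp3a11. Atp6v0d2, a proton pump subunit, was at 0.34 ± 0.16. Cyp2b9 and Cyp2a4 were at 0.06 ± 0.21 and 0.33 ± 0.58 (adjusted p = 0.879 and 0.496). Male-predominant transcripts were thus lower, while 2 of 12 female-biased genes (16.7%, beside 10.4% of all items) rose and Cyp2b9 and Cyp2a4 were not called.

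The male pattern of growth hormone pulses is known to set that sex difference in the mouse. Genes of the growth hormone and IGF axis were higher in 2 of 18 and lower in 2 (11.1% each). Both shares were close to the 10.4% and 10.9% over all items. Ghr, the growth hormone receptor, was at -0.64 ± 0.24 (-0.93 to -0.41, adjusted p = 0.00662). Igfbp7, a secreted IGF-binding protein of vessels and stroma, ranged from 0.95 to 2.49 (median 1.38, mean 1.48 ± 0.56, adjusted p = 3.05e-06). Igf1 was at -0.40 ± 0.23 (adjusted p = 0.262), although below 0 on each array, and passed when the 9-week arrays were fitted on their own (adjusted p = 0.0166). Igfals, its carrier subunit, was at -0.45 ± 0.38 (adjusted p = 0.0198), a call that ended without replicate 1, 2 or 4 (adjusted p = 0.0532, 0.11 and 0.059). Igf1r was at 0.19 ± 0.17, and its call ended without replicate 2 (adjusted p = 0.0705).

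**Figure D3:**
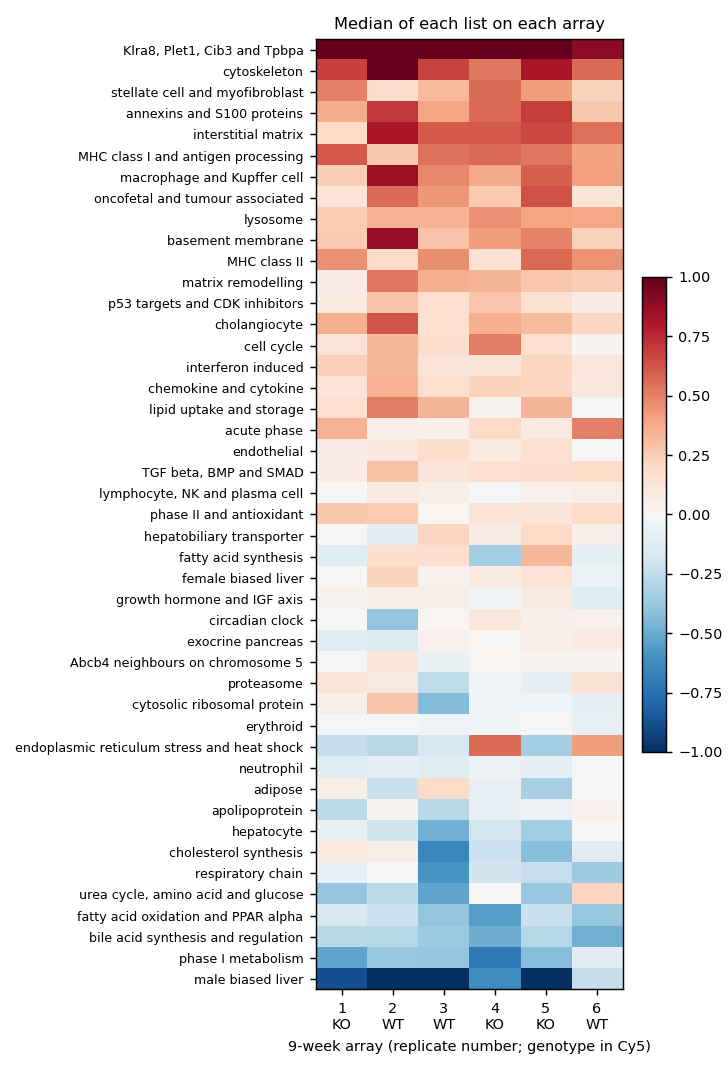
Median log2 ratio of each gene list (rows, ordered as by overall median) on each of the 6 arrays at 9 weeks (columns, with the genotype in Cy5), coloured from -1 (blue) to 1 (red). The male biased list is blue on every array (-1.18 to -0.24), the interstitial matrix list red on every array (0.19 to 0.82), and the ribosomal protein list changes sign between replicates 2 and 3.

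Lists for machinery that most cells use were taken next. Subunits of the respiratory chain were lower in 17 of 80 and higher in 0, with a median of -0.25. Ndufb5 and Ndufb3, of complex I, were at -0.42 ± 0.21 and -0.71 ± 0.44 (adjusted p = 1.14e-05 and 0.000168), and Cox6b2 at -0.48 ± 0.43. The beta and alpha chains of the ATP synthase, Atp5b and Atp5a1, were at 0.37 ± 0.50 and -0.15 ± 0.19 (adjusted p = 0.411 and 0.311). The count depended on single arrays, with 26 falls without replicate 2 and 9 without replicate 3, 4 or 5. Over arrays the median of this list lay between -0.59 and -0.01.

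Cytosolic ribosomal proteins were lower in 2 of 69 and higher in 0, under the shares over all items. Rpl39l was at -0.17 ± 0.14 and Rpl35a at -0.42 ± 0.28 (adjusted p = 0.00868 and 0.0434), the second a call that ended without replicate 1, 3, 4, 5 or 6 (adjusted p up to 0.14). Rpl10 and Rpl10a were at -0.02 ± 0.36 and 0.04 ± 0.32 (adjusted p = 0.941 and 0.893). Without replicate 2 the list had 4 falls. Its median ranged from -0.43 to 0.29 over the arrays.

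Proteasome genes were higher in 5 of 38 (13.2%) and lower in 1 (2.63%), beside 10.4% and 10.9% of all items. Besides Psmb8, Psmd8 rose to 0.57 ± 0.15 and Psmd10 to 0.28 ± 0.17. Psma1 was at 0.05 ± 0.44 (adjusted p = 0.851), and Psma2 at -0.20 ± 0.39 (adjusted p = 0.22) passed without replicate 2 (adjusted p = 0.0149), where the list had 5 falls. Endoplasmic reticulum stress and heat shock genes were higher in 2 of 24 (8.33%) and lower in 1 (4.17%), both under those shares. Hspb1, a small heat shock protein, rose to 0.93 ± 0.63 (0.20 to 1.95, adjusted p = 0.000615). Atf3, a stress factor, was at 0.26 ± 0.16 and Hyou1, a chaperone, at -0.29 ± 0.25. Those calls ended, for Atf3, without replicate 4 or 5 (adjusted p = 0.0802 and 0.0684) and, for Hyou1, without replicate 2 or 5 (adjusted p = 0.121 and 0.0662). Hspa5, the chaperone BiP, was at -0.17 ± 0.92 (adjusted p = 0.747), and Ddit3, CHOP, at 0.13 ± 0.43 (adjusted p = 0.428, or 0.0304 without replicate 2).

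Clock genes were lower in 1 of 14 and higher in 0. That one was Hlf, at -0.30 ± 0.42, whose call ended without replicate 2 or 6 (adjusted p = 0.106 and 0.0682). Dbp and Per1 were at -0.46 ± 0.32 and 0.01 ± 0.33 (adjusted p = 0.115 and 0.959). Markers of other tissues that a liver sample could carry were also counted, beside 10.4% of all items higher and 10.9% lower. Exocrine pancreas markers were higher in 1 of 17 (5.88%) and lower in 0, Sycn at 0.40 ± 0.32 (adjusted p = 0.0391), which ended without replicate 1, 3, 4 or 5 (adjusted p = 0.0812, 0.159, 0.0674 and 0.148). Amy2a5 and Cela1 were at -0.27 ± 0.46 and 0.01 ± 0.36. Erythroid markers had 1 rise and 1 fall of 8 (12.5% each), Car2 at 0.58 ± 0.34 and Klf1 at -0.22 ± 0.09, with Hba-a1 at -0.12 ± 0.43 and Alas2 at -0.23 ± 0.28. Adipose markers had 1 rise and 1 fall of 5 (20% each). Adipoq was at -0.40 ± 0.21 (adjusted p = 0.000272) and Lep at -0.09 ± 0.21, and Retn at 0.93 ± 0.50 (adjusted p = 0.0362) ended without replicate 1, 3, 4 or 5 (adjusted p = 0.117, 0.074, 0.123 and 0.103).

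A set of 4 genes that earlier results of these data had put together was high throughout, so its pattern is a description. Apart from Klra8, Plet1, a surface protein of epithelial progenitors and placenta, ranged from 1.24 to 2.63 (mean 2.03 ± 0.48), Cib3, a calcium-binding protein, from 0.31 to 2.77 (mean 1.56 ± 0.92), and Tpbpa, a trophoblast protein, from 0.54 to 2.26 (mean 1.48 ± 0.68). Of 42 measured genes within 10 Mb of Abcb4 on chromosome 5, 9 were higher (21.4%) and 3 lower (7.14%). The shares over all items were 10.4% and 10.9%. The count of rises among the neighbours was 6 without replicate 2 or without replicate 4. It was 5 with the 9-week arrays on their own, a fit with fewer calls over all items. Those neighbours include Cd36 and Abcb1b, whose values are given above, and the median of all 42 was -0.02. Whether sequence differences of the knockout's donor strain around the deleted gene bear on these values was not tested.

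Against the 6 arrays of 3 weeks, the knockout difference at 9 weeks was larger or smaller for 765 items (3.67%), 335 in the upward direction (1.61%) and 430 in the downward one (2.06%). The series states 5 mice per genotype and time point, so arrays of different weeks were taken as different mice. The weekly means shared the dye term and the pooled spread of the fit. Hsd3b5 was at -0.20 ± 0.29 at 3 weeks, which put 9 weeks lower by a difference of -3.61 (adjusted p = 2.23e-05). Cyp7b1 and Elovl3, at -0.09 ± 0.22 and -0.26 ± 0.32 at 3 weeks, differed by -2.81 and -2.50 (adjusted p = 0.00133 and 3.42e-05). These 3 genes were chosen for their low 9-week values, so their distance from 3 weeks is a description. Of the male biased list, 5 of 12 were lower at 9 weeks than at 3 weeks and 0 higher. Of the female biased list, 4 of 12 were higher at 9 weeks than at 3 weeks and 0 lower.

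In the upward direction from 3 weeks, Lyz2 went from 1.02 ± 0.45 to the 2.45 given above (difference 1.43, adjusted p = 0.000455) and Mgp from 0.96 ± 0.43 (difference 1.33, adjusted p = 0.00293). Lum, Krt19 and Epcam had means of 0.42 ± 0.35, 0.02 ± 0.11 and 0.26 ± 0.12 at 3 weeks, with differences of 1.44, 0.84 and 0.97 (adjusted p = 0.00241, 0.00146 and 0.00291). Col3a1 and Anxa5 were already high at 3 weeks, at 1.38 ± 0.51 and 2.63 ± 0.41, and were higher at 9 weeks by 0.91 and 0.92 (adjusted p = 0.0476 and 0.0434). Lyz2, Mgp, Col3a1 and Anxa5 were named for their high 9-week values, so their distance from 3 weeks is a description too. Clu went the other way, from 3.11 ± 0.40 at 3 weeks, a difference of -1.39 (adjusted p = 0.00252). Cyp2a4, at -2.78 ± 1.07 at 3 weeks, differed by 3.10 (adjusted p = 0.00043), and H19, at 3.08 ± 2.37, by -3.41 (adjusted p = 0.00477). The 3-week arrays of H19 spread from about 0 to 5.42, so its difference leans on some of them. In the interstitial matrix list 6 of 22 genes were higher than at 3 weeks, and in the cholangiocyte list 5 of 20. Without replicate 5 the count over all items was 442.

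**Figure D4:**
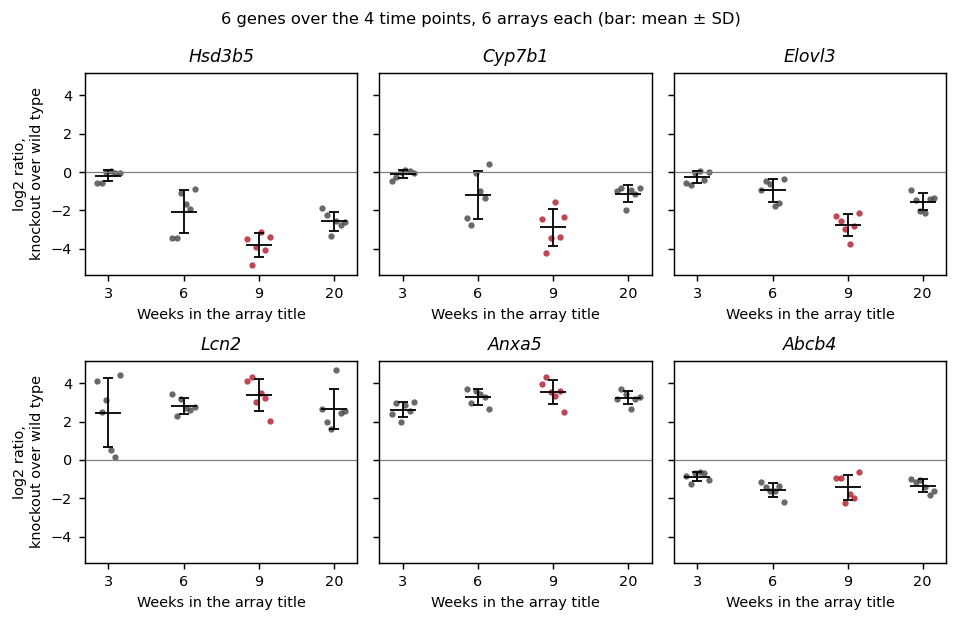
Log2 ratio (vertical axis, knockout over wild type) of 6 genes on the 6 arrays of each time point, with mean ± SD. Hsd3b5, Cyp7b1 and Elovl3 have their lowest means at 9 weeks (-3.81, -2.90 and -2.76) and lie near 0 at 3 weeks, whereas Anxa5 is above 1.9 and Abcb4 below 0 on every array.

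Against 6 weeks 16 items differed (0.0767%) and against 20 weeks 20 items (0.0959%), while 1607 and 2396 passed at an unadjusted p under 0.05. No item passed against each of the other 3 weeks, so the genes named here were chosen after their values were seen. Elovl3 was lower at 9 weeks than at 6 weeks (-0.96 ± 0.60, difference -1.80, adjusted p = 0.0107), and its difference from 20 weeks, where it was at -1.56 ± 0.45, was -1.20 (adjusted p = 0.0762). Hsd3b5 was at -2.08 ± 1.12 at 6 weeks and -2.57 ± 0.49 at 20 weeks, and Cyp7b1 at -1.19 ± 1.25 and -1.12 ± 0.44, with no call against either week. C6, a complement component, was at 1.67 ± 0.62 at 6 weeks and at 0.32 ± 0.39 at 9 weeks (difference -1.35, adjusted p = 0.0283). Rdh9, a retinol dehydrogenase, was at -0.06 ± 0.24 at 6 weeks and at 0.79 ± 0.34 at 9 weeks (adjusted p = 0.0375). Hpgd, which inactivates prostaglandins, was at -0.99 ± 0.25 and at 0.06 ± 0.23 (adjusted p = 0.00653).

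Against 20 weeks, Acsm3 and Dhtkd1, mitochondrial enzymes of fatty acid activation and lysine breakdown, were lower at 9 weeks. Acsm3 was at -0.80 ± 0.25 at 9 weeks and at -0.06 ± 0.18 at 20 weeks (adjusted p = 0.0157), and Dhtkd1 at -0.73 ± 0.22 and -0.00 ± 0.22 (adjusted p = 0.0299). Jchain, the joining chain of secreted antibodies, was at 0.10 ± 0.07 at 9 weeks and at 0.66 ± 0.32 at 20 weeks (adjusted p = 0.0157). Onecut1, a liver transcription factor, was at -0.31 ± 0.19 and 0.31 ± 0.22 (adjusted p = 0.0286). Ly6d was higher at 9 weeks, against 0.49 ± 0.63 at 20 weeks (adjusted p = 0.042). These counts rested on single 9-week arrays: against 6 weeks they were 3, 6, 2 and 2 without replicate 1, 2, 3 and 5, and against 20 weeks 187, 3 and 2 without replicate 2, 3 and 5.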

How the data were processed

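The authors deposited 1 value per feature and array, a log ratio of the Cy5 and Cy3 signals. Base, background correction, normalization and direction are not given by any source used here. The values were used as log2 ratios as deposited, from -8.45 to 7.53, with no missing value and 0 columns of other series. Reading the 22575 rows against the platform annotation in file order was wrong: for 48 accessions spotted 10 or more times, the median correlation between copies averaged 0.0053. Placing rows in a grid of 215 by 105 with both axes reversed and read by column gave 0.664, and that layout was used. Features with exactly 1 gene symbol numbered 18218, and features of a symbol were averaged. Platform names can be old, and RefSeq GRCm38.p6 served only for names, neighbours and promoter windows.

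Ratios were turned to knockout over wild type by the dye labels and centred on each array's median. limma 3.58.1 in R 4.3.3 (lmFit, eBayes) fitted 24 arrays with 1 mean per week and 1 dye term, two-sided, with Benjamini-Hochberg adjustment over 20861 items and a threshold of 0.05. Spot intensities are not used here, so dim spots could not be filtered. The number of arrays limits the precision.

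Named are Abcb4 and the 12 largest rises and 12 largest falls among calls with 1 sign on all 6 arrays. Clone names, predicted genes and features with no single gene were not ranked. Of each list, its first 2 measured members and the 3 other calls with the smallest p are named. The lists, among them the markers of other cell types, and the comparison itself were chosen with earlier results of these data known. Lists are described by counts and medians, with no test. Numbers in the titles were not treated as pairs. Of 18 same-numbered pairs of arrays from 9 and another week, 10 had deviations correlated above 0.1 (range -0.36 to 0.50). That does not settle whether the numbers pair the arrays. Alternatives were no centring, quantile normalization, a common spread, other dye terms, array weights, a replicate block, the closest opposite-dye arrays averaged, features singly, the 9-week arrays on their own, the arrays of both compared weeks only, and each array left out.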

Additional observations from a re-analysis of the deposited data

Results flagged for a closer look

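For 12 of the 209 genes examined by name, 1 array lay far from the other 5 (its gap to the nearest array, as a share of the whole range, passed Dixon's limit, which chance does in about 1 in 20 groups). Replicate 2 was the high array for 8 of the 12. It read Pdgfra at 1.31, H2-DMb1 at 1.49, Ccr2 at 1.57, Ctss at 2.40 and Cdkn1a at 1.36. It also read Lpl at 2.13, Gstm1 at 1.98 and Cyp3a41a at 3.10. Replicate 5 was low for S100a9, at -2.03, and for Cd5, at -1.20. Replicate 6 was high for Otc, at 0.46, and for Apoa1, at 0.43. Among the medians of 45 lists, 1 was marked in the same way, that of the clock genes on replicate 2, at -0.39. Replicate 2 also has the widest spread of all 6 arrays, as given above.

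The knockout difference at 9 weeks differed from that at 3 weeks for 765 items, from that at 6 weeks for 16 and from that at 20 weeks for 20, each by the contrast of the weekly means in limma.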

How the results depend on the processing

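Over the alternatives that kept all 6 arrays in the fit of 24, the count of 4444 calls at 9 weeks stayed between 3516 (closest opposite-dye arrays averaged) and 5120 (array weights). It was 2286 when the 6 arrays were fitted on their own, where fewer arrays give the spread, and 3293 to 4348 when 1 was left out. The share of calls that were higher lay between 45.5% and 51.4% over all of these. No named gene that passed the threshold changed sign under any alternative that averaged the features of a gene. With features taken singly, named genes were not compared in this way. Over all genes, 23 had features called in both directions, among them 1 of the stellate cell list and 1 of the cell cycle list. Of the 209 named genes, 162 passed the threshold, and 138 of these calls were kept in all 6 fits that left out an array. Of the 162 calls, 18 ended with the 9-week arrays on their own, 13 with a common spread and 10 with the closest pair averaged. When 1 array was left out, 4 to 15 ended. The 18 were Tgfb2, Ltbp1, S100a9, Irf7, Cdk1, Otc, Tdo2, Slc10a1, Stard4, Mlxipl, Cidec, Nqo1, Igf1r, Igfals, Hyou1, Rpl39l, Cox6b2 and Sycn. The 13 were Mup5, Cdkn1a, Ttr, Otc, Ebp, Tm7sf2, Mlxipl, Apoe, Igfals, Hlf, Rpl35a, Sycn and Retn, and the 10 were Cxcr2, Cxcl10, Cdkn1a, Ttr, Otc, Tdo2, Tm7sf2, Rpl35a, Sycn and Retn. Calls were gained by 3 named genes on their own (Cyp4a10, Igf1 and Dbp), by 4 with array weights (Pecam1, Pparg, Ddit3 and Psma2), by 3 without replicate 2, and by 1 each with quantile normalization and a dye term per week. On their own the 9-week arrays also gave 9 interferon-induced rises, 9 cell cycle rises, 2 lipid uptake rises and 5 bile acid falls. The 765 differences from 3 weeks were 323 with the arrays of both weeks only and 442 to 858 when 1 array was left out. The 16 from 6 weeks were 1 with a common spread, 10 without the dye term, 6 with both weeks only and 2 to 23 when 1 was left out. The 20 from 20 weeks were 9, 12, 6 and 2 to 187 in the same order. Why the last 2 counts moved was not tested. With the replicate number as a block the counts were 4401 at 9 weeks and 756, 28 and 32 against 3, 6 and 20 weeks. Of 18 same-numbered pairs of arrays, 5 correlated best with their own number. Their median correlation was 0.13, against -0.02 for other numbers. Whether the numbers pair the arrays was not settled by these values. Signal over background is not used here, so which features were too dim to measure is unknown.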

Other observations

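Families not described above were counted after the values were seen, so their counts are descriptions. Features named for olfactory, vomeronasal and taste receptors, which sense odours and tastes and are not known for expression in liver, numbered 858 genes. Of these 186 were called lower (21.7%) and 7 higher (0.816%), beside 10.9% and 10.4% of all items. Their median was -0.053 and lay below 0 on each of the 6 arrays, from -0.092 to -0.038, and between 138 and 182 were lower when 1 array was left out. Besides Tas2r140, Olfr460 was at -1.30 ± 0.45, Olfr166 at -1.26 ± 0.39, Vmn1r237 at -1.19 ± 0.27, Olfr711 at -1.04 ± 0.41 and Olfr577 at -1.01 ± 0.21. At 3, 6 and 20 weeks Olfr166 was at -0.32, -0.73 and -0.68, Tas2r140 at -0.09, -0.99 and -1.14, and Vmn1r237 at -0.10, -0.43 and -0.60. Olfr711 was at -0.10, -1.20 and -0.70, so its lowest mean was at 6 weeks. Of 35 keratin-associated proteins, which are known from hair, 5 were lower and 0 higher, with Krtap4-2 at -1.61 ± 0.58. Their share lower, 14.3%, was nearer the 10.9% of all items than that of the receptors. What these spots bind was not tested.

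Clade B serpins, inhibitors of intracellular proteases, were higher in 5 of 20 and lower in 0. Serpinb3d ranged from 0.99 to 2.63 (mean 1.96 ± 0.59, adjusted p = 3.81e-08), Serpinb6a from 1.27 to 2.69 (mean 1.83 ± 0.49) and Serpinb6c from 1.07 to 2.09 (mean 1.40 ± 0.37). Keratins split, with 6 of 35 higher and 6 lower: Krt8 and Krt18, the pair of simple epithelia, were at 1.78 ± 0.56 and 1.37 ± 0.58, and Krt26, of the hair follicle, at -1.02 ± 0.46. Carboxylesterases were lower in 6 of 11 and higher in 1, with a median between -0.73 and -0.33 on 5 arrays and 0.20 on replicate 6. Ces1f was at -1.42 ± 0.67, and at 0.05, -1.60 and -1.76 at 3, 6 and 20 weeks. Ces4a, at -1.22 ± 0.76, was already at -0.77 at 3 weeks, and Ces1d, at -0.58 ± 0.38, at -0.68. Sulfotransferases were lower in 4 of 13 and higher in 2. Sult2a8, which sulfates bile acids in the mouse, was read between -1.85 and -1.42 (mean -1.68 ± 0.17, adjusted p = 1.88e-07), and Sult3a1 was at -1.38 ± 0.54. Members of the carboxylesterase and serpin families are close copies and may share signal.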
